A study of Mus musculus with 8 samples.

Results

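Cytochrome c oxidase, complex IV of the mitochondrial respiratory chain, was followed at the transcript level in kidneys of mice with a conditional Cox10 deletion through 39 nuclear genes. They were chosen by name as structural subunits, heme A enzymes and assembly or expression factors, and all 39 were matched by symbol among the 47643 genes of the count files. Of these, 38 passed the filter on low counts and were tested; Pet117 did not pass. The cKO group was 4 whole kidneys of Six2-Cre;Cox10-fl/fl mice, and the WT group was 4 whole kidneys of wild type mice without a Cre or a floxed allele named in the labels. Replicate 2 of each group was 2.5 months old and all others were 3 months old, and the labels give no sex. Six2-Cre is active in progenitors of the nephron epithelium, so collecting duct, vessels, interstitium and immune cells keep an intact Cox10 gene, and the kidneys hold both kinds of cell. Libraries held 9454830 to 14837448 counts in cKO and 9731334 to 15838026 in WT kidneys. Nothing in the labels says that the numbered kidneys were paired, and p-values judge the genotype difference against the spread between kidneys of a genotype.

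Complex IV passes electrons from cytochrome c to oxygen and pumps protons across the inner mitochondrial membrane. Its catalytic core is encoded in mitochondrial DNA and carries heme A and copper, and the nuclear subunits surround that core. COX10 converts heme b to heme O, COX15 converts heme O to heme A, a set of chaperones delivers copper, and further factors translate, stabilise and assemble the core subunits. Proximal tubule cells, which are rich in mitochondria, depend on this chain for solute reabsorption.

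Genes that differed between the genotypes were 16.7% of all 13829 tested genes (edgeR quasi-likelihood test, Benjamini-Hochberg adjusted p under 0.05), with 9.57% higher and 7.14% lower in cKO kidneys. Among the complex IV genes 2 of 38 differed, or 5.26%. Cox6b2, a subunit isoform best known from testis, rose, and Cox15 fell. The median log2 fold change of the 38 genes was 0.04, against -0.01 over all tested genes. A log2 fold change within 0.5 of 0 was seen in 32 of the 38 genes (84.2%) and in 55.5% of all tested genes. The libraries of the genotypes did not overlap for 2 of the 38 genes, Cox6b2 and Cox11, and for 22.6% of all tested genes.

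**Figure D1:**
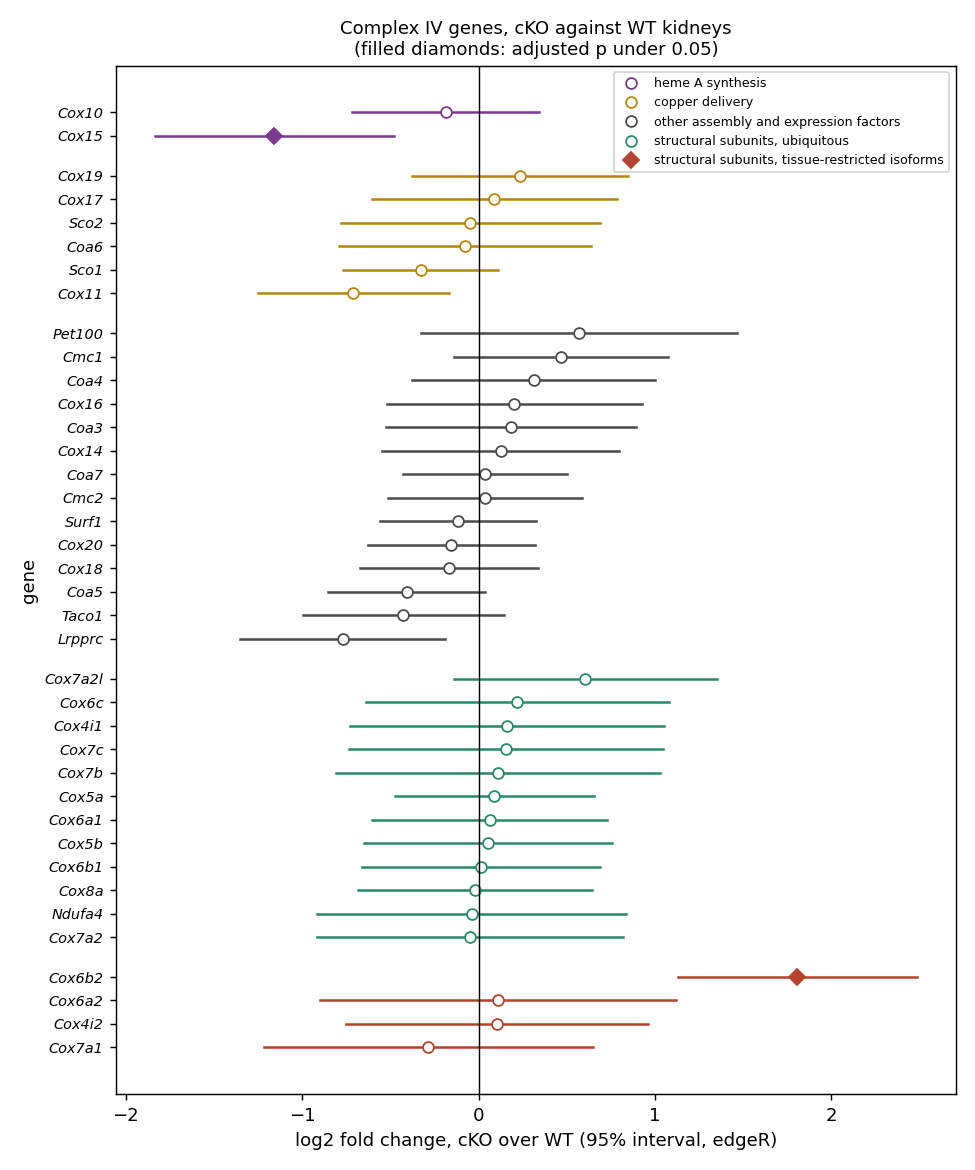
Each row is 1 of the 38 tested genes, the point is its log2 fold change (cKO over WT) and the line its 95% interval from edgeR, ordered by role. Filled diamonds mark Cox15 at -1.16 and Cox6b2 at 1.81, and the intervals of the 12 ubiquitous subunits all cross 0.

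Properties of the libraries are given here for use below. Proximal tubule markers summed to 2759 to 7957 CPM (counts scaled to library size) in cKO and 9178 to 15370 CPM in WT kidneys, with 4 of 10 markers lower, 0 higher and none at 0. Fibroblast markers summed to 501.7 to 809.7 CPM in cKO and 116.3 to 202.9 CPM in WT kidneys, with 7 of 8 higher, 1 lower and none at 0. Macrophage markers summed to 244.9 to 421.5 CPM in cKO and 94.13 to 159.4 CPM in WT kidneys, with 8 of 10 higher, 0 lower and none at 0. In whole tissue, fewer cells of a type and less RNA per cell cannot be told apart. Collecting duct markers summed to 1383 to 3072 CPM in cKO and 641 to 964.7 CPM in WT kidneys, with 5 of 8 higher, 1 lower and none at 0. Pericyte and smooth muscle markers summed to 433.7 to 913 CPM in cKO and 218 to 307.7 CPM in WT kidneys, with 5 of 10 higher, 1 lower and none at 0. Acta2 and Tagln made up most of that sum in cKO kidneys. Their means were 190.8 and 334.2 CPM in cKO and 55.7 and 49.9 CPM in WT kidneys. By log2 fold change 6 of the 10 were positive and 4 negative. Thick ascending limb markers summed to 1705 to 2790 CPM in cKO and 3165 to 5515 CPM in WT kidneys. Of these 5 markers 1 was higher and 0 were lower. Endothelial markers summed to 138.6 to 216.7 CPM in cKO and 188.6 to 252.3 CPM in WT kidneys. Of these 6 markers 0 were higher and 2 were lower. Reads of Y-linked genes were present in cKO 3 and in WT 2, WT 3 and WT 4, so sex and genotype are unbalanced: 3 cKO kidneys and 1 WT kidney had none. Libraries also differed in how transcript level depended on transcript length. This length slope was fitted to log2(CPM + 1) minus its mean over the 8 libraries, against the longest transcript of each protein-coding gene. It is therefore relative to the other libraries. Per doubling of length it was -0.013, -0.24, -0.10 and -0.090 in cKO 1 to 4 and -0.082, -0.11, 0.38 and 0.25 in WT 1 to 4. WT 3 and WT 4 thus stood apart, with long transcripts high and short transcripts low relative to that mean.

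Cox10, the deleted gene, did not pass the test in total transcript level. It had 19.5, 10.9, 20.8 and 22.3 CPM in cKO kidneys, against 24.6, 19.6, 19.2 and 20.4 CPM in WT kidneys. The genotypes overlapped, and cKO 2 alone lay below all WT kidneys. The means were 18.4 ± 5.12 CPM in cKO and 20.96 ± 2.47 CPM in WT kidneys (SD, n = 4 each), a log2 fold change of -0.19 with a 95% interval of -0.72 to 0.34 (edgeR adjusted p = 0.619). An exact two-sided permutation test of log2 CPM over 70 assignments gave p = 0.514, where 0.0286 is the smallest it can give. The log2 fold change was -0.48 among kidneys without Y-linked reads, 0.072 among those with them, and 0.086 without WT 1 and cKO 2, the last a choice made after seeing the data. Cox10 (ENSMUSG00000042148) lies on mm10 chromosome 11, 63962627 to 64079468, minus strand, and its floxed exons are not named in the labels. Reads from the rest of the gene and from cells outside the nephron count in this total, so it does not check the deletion.

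Cox15, the enzyme that follows COX10 in heme A synthesis, fell in cKO kidneys. It had 47.7, 18.9, 36.6 and 26.8 CPM in cKO kidneys, against 44.7, 68.2, 83.5 and 93.9 CPM in WT kidneys. The genotypes overlapped at cKO 1 and WT 1, and all other cKO kidneys were below all WT kidneys. The means were 32.5 ± 12.4 CPM in cKO and 72.6 ± 21.4 CPM in WT kidneys (SD, n = 4 each). The log2 fold change was -1.16 (SE 0.31, interval -1.84 to -0.48, edgeR adjusted p = 0.0266), or 0.448 of the WT level. Cox15 (ENSMUSG00000040018) lies on mm10 chromosome 19, 43733254 to 43753000, minus strand, and overlaps Entpd7 and Cutc on the other strand, neither of which passed the test. The libraries were stranded, but the strand setting of the counting is not stated, so it is unknown whether reads of overlapping genes on opposite strands were kept apart.

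The Cox15 call depended on the libraries and terms used. Per exon length, Cox15 was 110% ± 31.7 of Cox10 in cKO and 220% ± 77.8 of Cox10 in WT kidneys (SD, n = 4 each), with overlap. With a sex term, under which 6.8% of all genes differed, its log2 fold change was -0.84 (edgeR adjusted p = 0.206). With the length slope as a term, under which 7.81% of all genes differed, it was -0.73 (edgeR adjusted p = 0.129). Among kidneys without Y-linked reads it was -0.52 and among those with them -1.16, each with 1 kidney on one side. The edgeR adjusted p was 0.0574 without cKO 2, 0.0501 without cKO 3, 0.0907 without cKO 4, 0.0629 without WT 3 and 0.0825 without WT 4. Its direction was lower in cKO under all 24 alternatives, with log2 fold changes of -1.40 to -0.73 and adjusted p of 0.00419 to 0.245. The 8 libraries had the same order by Cox15 and by the proximal tubule marker sum, except that the neighbours cKO 1 and WT 1 changed places. The part of tubule markers in the lower Cox15 level was not tested.

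**Figure D2:**
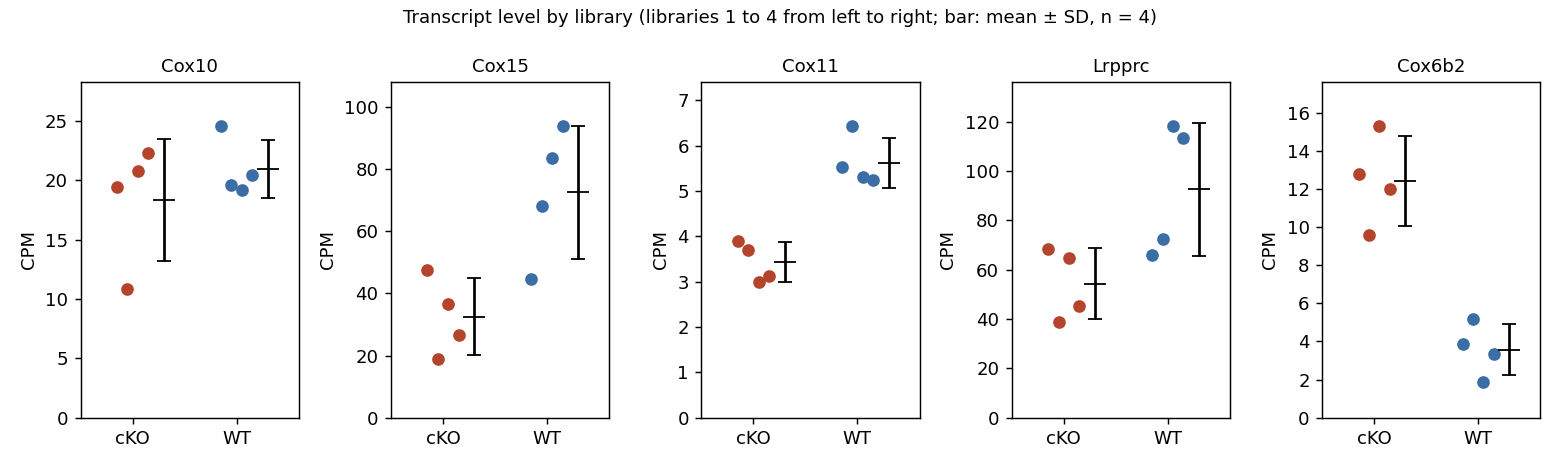
CPM of Cox10, Cox15, Cox11, Lrpprc and Cox6b2 in each library, cKO at the left and WT at the right of each panel, with points for libraries 1 to 4 and the mean ± SD (n = 4). Cox11 and Cox6b2 do not overlap between the genotypes, and Cox10, Cox15 and Lrpprc do.

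The promoters of both heme A genes are shown because only one of these consecutive enzymes passed the test. They are the 250 bases before the RefSeq start (GRCm38.p6), 5′ to 3′ on the gene's strand, with matches to the ETS core CCGGAAG and to the GC box GGGCGG, on either strand, in capitals. Cox10 lies downstream of chr11:64079473-64079722 and Cox15 of chr19:43753001-43753250, both on the minus strand.
Cox10: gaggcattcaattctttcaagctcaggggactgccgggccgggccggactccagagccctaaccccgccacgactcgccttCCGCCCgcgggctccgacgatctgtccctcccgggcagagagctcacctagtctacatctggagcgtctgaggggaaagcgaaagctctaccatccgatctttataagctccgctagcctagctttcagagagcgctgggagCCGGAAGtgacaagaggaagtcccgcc
Cox15: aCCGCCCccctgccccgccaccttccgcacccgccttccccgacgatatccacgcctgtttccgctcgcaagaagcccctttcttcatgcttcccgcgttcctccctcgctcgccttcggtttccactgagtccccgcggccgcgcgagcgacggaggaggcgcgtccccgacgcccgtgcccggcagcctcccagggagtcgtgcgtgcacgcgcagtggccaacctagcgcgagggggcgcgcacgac
The Cox10 window held 1 match of each motif, and the Cox15 window held 1 GC box and 0 ETS cores. Among the 32 complex IV genes with a promoter in the table, 9 held the ETS core (28.1%, against 7.05% of all 27025 promoters) and 18 the GC box (56.2%, against 32.9%). The NRF1 core TGCGCA was found in 3 (9.38%, against 6.66%) and the YY1 core AAGATGG in 1 (3.12%, against 4.53%). A match describes the letters of the window and is not a binding site.

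The 6 copper delivery genes did not pass the test, with a median log2 fold change of -0.06. Cox11, which inserts copper into the COX1 subunit, had 3.91, 3.70, 2.99 and 3.13 CPM in cKO kidneys, against 5.52, 6.43, 5.31 and 5.24 CPM in WT kidneys. Every cKO kidney was below every WT kidney. Cox11 overlaps Tom1l1 on the other strand, which had a log2 fold change of -0.22 and was not called. The Cox11 log2 fold change was -0.71 (interval -1.25 to -0.17, edgeR adjusted p = 0.0717), and only DESeq2 among the alternatives put it past the threshold (adjusted p = 0.0471). Sco1 and Sco2, which load the copper centre of COX2, had log2 fold changes of -0.33 and -0.05. Cox17, the chaperone that hands copper to these proteins, was at 0.09, Cox19 at 0.24 and Coa6 at -0.08. Cox17 reached 117.3 CPM in cKO 2 and 62.6 to 70.4 CPM in the other cKO kidneys, against 44.1 to 100.6 CPM in WT kidneys. The spread within each genotype thus exceeded the difference between them for Cox17. Sco2 shares 717 bases with its neighbour Tymp, so its low level of 1.41 to 2.87 CPM in cKO and 1.75 to 2.75 CPM in WT kidneys is uncertain.

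None of the 14 tested assembly and expression factors passed the test, and 8 had a positive and 6 a negative log2 fold change (median 0.04). Lrpprc, which stabilises mitochondrial messenger RNAs, had 68.3, 38.7, 64.5 and 45.4 CPM in cKO kidneys, against 66.1, 72.6, 118.2 and 113.2 CPM in WT kidneys. The genotypes overlapped at cKO 1 and WT 1, as they did for Cox15. The log2 fold change of Lrpprc was -0.77 (interval -1.35 to -0.19, edgeR adjusted p = 0.0685). It passed the threshold with DESeq2 (adjusted p = 0.0381), with an age term (edgeR adjusted p = 0.034) and without WT 1 (edgeR adjusted p = 0.0347). Taco1, the translational activator of COX1, was at -0.43 and Coa5 at -0.41. Surf1, the assembly factor whose human gene is mutated in Leigh syndrome, averaged 45.8 ± 5.47 CPM in cKO and 49.7 ± 10.01 CPM in WT kidneys (SD, n = 4 each), a log2 fold change of -0.12. The COX2 chaperones Cox18 and Cox20 were at -0.17 and -0.16.

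Factors that bind newly made COX1 had small positive values, with Cox14 at 0.13, Coa3 at 0.18 and Cmc1 at 0.47, of which Cox14 and Coa3 turned negative with the length slope term and without WT 3 and WT 4. Pet100, at 0.57, had the highest log2 fold change of the assembly factors, with an interval of -0.32 to 1.46. It had 30.8, 89.5, 37.4 and 33.8 CPM in cKO kidneys, against 50.2, 39.7, 17.1 and 22.0 CPM in WT kidneys. Its mean in cKO thus followed 1 library, cKO 2. Coa4 was at 0.31, Cox16 at 0.20, Cmc2 at 0.04 and Coa7 at 0.04. Cox16 shares 1784 identical bases with the readthrough gene Gm20498, so its counts may be split. Pet117 had 3 counts in cKO 2 and 0 in every other library. All of its 693 exon bases are also in Kat14, which averaged 475 counts per library, so its level could not be judged.

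The 12 ubiquitous structural subunits had log2 fold changes of -0.05 to 0.60 and none passed the test (smallest edgeR adjusted p = 0.238). Their intervals ran from -0.92 at the lowest to 1.35 at the highest, so changes of moderate size in either direction were not detectable with these libraries. Their sum was 6733, 11420, 6840 and 6620 CPM in cKO kidneys, against 10570, 9847, 4089 and 5201 CPM in WT kidneys. cKO 2 had the highest sum, and the WT kidneys held both the lowest sum and the next highest. The mean sums were 7903 ± 2345 CPM in cKO and 7426 ± 3257 CPM in WT kidneys (SD, n = 4 each). Cox4i1, the largest nuclear subunit, had 1130, 2207, 1106 and 1182 CPM in cKO kidneys, against 2012, 1600, 625.1 and 794 CPM in WT kidneys. Cox4i1 repeated the order of the sum at its ends, with cKO 2 highest and WT 3 lowest. Gm20388 overlaps Cox4i1 on the same strand, and its log2 fold change was 0.24. Ndufa4, first assigned to complex I and now counted in complex IV, averaged 867 ± 459 CPM in cKO and 892 ± 377 CPM in WT kidneys (SD, n = 4 each).

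The subunits shared their high and low libraries, which did not follow genotype. All 12 were lowest in WT 3, and 10 of 12 were highest in cKO 2 or WT 1. WT 3 had the highest length slope, and cKO 2 had the lowest. The principal transcripts of the subunits are short, 540 to 1076 bases. Cox15 and Lrpprc, with principal transcripts of 4798 and 4393 bases, were lowest in cKO 2 and highest in WT 3 and WT 4. Cox17, with an annotated principal transcript of 3690 bases, was nevertheless high in cKO 2 and low in WT 3 and WT 4, like the subunits. Other assembly factors did not all sort by length. Coa7 (3714 bases), Cox19 (2461) and Cox16 (2007) correlated with the subunit mean over the 8 libraries at r of 0.795, 0.945 and 0.962. Taco1 (1383 bases), Cox18 (1333), Cox11 (1224) and Sco2 (1250) were at -0.489, -0.241, 0.015 and 0.020. Short Cox14 (723 bases) was at 0.97 and long Lrpprc at -0.721. With the length slope as a term, the log2 fold change of Cox4i1 was -0.50 and that of Cox6b1 -0.43, against 0.16 and 0.01 without it. Without WT 3 and WT 4, left out after seeing the data, these values were -0.34 and -0.38. None of the 12 passed the test under any of the 24 alternatives.

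**Figure D3:**
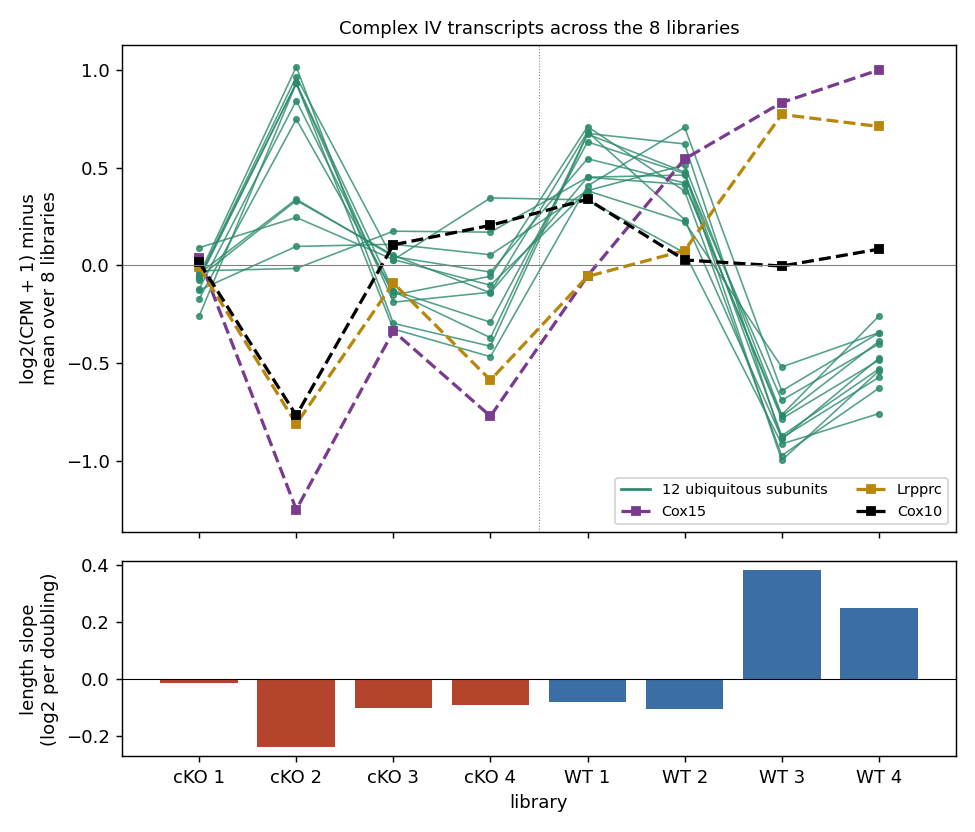
The upper panel gives log2(CPM + 1) minus its mean over the 8 libraries for the 12 ubiquitous subunits (green) and for Cox15, Lrpprc and Cox10 (dashed), and the lower panel the length slope of each library. The subunits are low in WT 3 and WT 4, where the slope is 0.38 and 0.25, and mostly high in cKO 2, where it is -0.24.

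Cox7a2l, a COX7A-related protein that joins complexes III and IV in supercomplexes, had the highest log2 fold change of the ubiquitous subunits at 0.60 (interval -0.14 to 1.35, edgeR adjusted p = 0.238). It had 243.8, 498.3, 259.7 and 323.8 CPM in cKO kidneys, against 321.5, 266.2, 134.6 and 150.0 CPM in WT kidneys. The genotypes overlapped in level. Cox7a2l was also taken as a share of the summed CPM of the 12 subunits. A share cancels only a movement of equal size in all 12, and their movements differed in size. In cKO 2 the share of Cox6a1 was 5.45%, against 9.17% to 10.7% in the other cKO kidneys. The share of Cox7a2l was 3.62%, 4.36%, 3.80% and 4.89% in cKO kidneys, against 3.04%, 2.70%, 3.29% and 2.88% in WT kidneys. Every cKO share of Cox7a2l was above every WT share, whereas the shares of the other 11 subunits overlapped. By level, the genotypes did not overlap for 22.6% of all tested genes. This comparison of shares was made after the values were seen and carries no test, and Cox7a2l shares 201 identical bases with Gm6969, which averaged 1.36 counts per library.

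Of the 4 tissue-restricted isoforms, Cox6b2 rose and the other 3 did not pass the test. Cox6b2, the testis counterpart of the subunit COX6B1 that faces the intermembrane space, had 12.8, 9.57, 15.3 and 12.01 CPM in cKO kidneys, against 3.88, 5.17, 1.88 and 3.36 CPM in WT kidneys. Every cKO kidney was above every WT kidney, and the values rest on 696 counts in cKO and 165 counts in WT kidneys. The means were 12.4 ± 2.36 CPM in cKO and 3.57 ± 1.36 CPM in WT kidneys (SD, n = 4 each), a 3.5-fold difference with a log2 fold change of 1.81 (SE 0.31, interval 1.13 to 2.49, edgeR adjusted p = 0.00322). The rise passed the threshold under all 24 alternatives, with log2 fold changes of 1.48 to 2.13 and adjusted p of 1.07e-06 to 0.0417. Beside these, it was 1.56 among kidneys without Y-linked reads (edgeR adjusted p = 0.287) and 2.15 among those with them (edgeR adjusted p = 0.034), and the difference between these values had an edgeR adjusted p of 1. Cox6b2 (ENSMUSG00000051811) lies on mm10 chromosome 7, 4751792 to 4753094, minus strand. No transcript of another gene matched it over 100 bases at 95% identity, and its neighbour Kmt5c had a log2 fold change of -0.49 and was not called.

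Cox6b1, the ubiquitous counterpart, had 577, 758.2, 624.1 and 546.1 CPM in cKO kidneys, against 823.6, 830, 372.6 and 455.2 CPM in WT kidneys. Its means, 626 ± 93.6 CPM in cKO and 620 ± 241 CPM in WT kidneys (SD, n = 4 each), did not differ beyond their spread. Per exon length, Cox6b2 stood at 1.41%, 0.807%, 1.57% and 1.41% of Cox6b1 in cKO kidneys, against 0.301%, 0.398%, 0.322% and 0.472% in WT kidneys. The isoform therefore remained a small fraction of Cox6b1 in every kidney. The ratio averaged 1.30% ± 0.336 in cKO and 0.373% ± 0.0779 in WT kidneys (SD, n = 4 each), or 3.48-fold. With principal transcript lengths it was 2.15% in cKO and 0.617% in WT kidneys. The male germ cell genes Prm1, Prm2 and Tnp1, looked at after the rise was seen, had 0 counts in all 8 libraries. Of the other germ cell genes looked at, Ddx4 had 1 count over the cKO and 6 over the WT kidneys, Akap4 had 1 in cKO and 0 in WT kidneys, and Ldhc had 0 in cKO and 1 in WT kidneys. The rise of Cox6b2 stood beside higher fibroblast, macrophage, collecting duct, and pericyte and smooth muscle marker sums in cKO kidneys, given above. The last of these rested mostly on Acta2 and Tagln. The part of these sums in the rise was not tested.

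The promoters of the Cox6b pair are shown because one isoform rose while the other did not pass the test. They are drawn as above, Cox6b1 from chr7:30626115-30626364 and Cox6b2 from chr7:4753095-4753344, both for the minus strand.
Cox6b1: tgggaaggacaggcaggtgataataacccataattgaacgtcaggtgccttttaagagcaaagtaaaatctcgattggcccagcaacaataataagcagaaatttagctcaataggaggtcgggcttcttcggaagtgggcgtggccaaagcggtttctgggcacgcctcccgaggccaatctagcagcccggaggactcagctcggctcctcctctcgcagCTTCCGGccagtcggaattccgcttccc
Cox6b2: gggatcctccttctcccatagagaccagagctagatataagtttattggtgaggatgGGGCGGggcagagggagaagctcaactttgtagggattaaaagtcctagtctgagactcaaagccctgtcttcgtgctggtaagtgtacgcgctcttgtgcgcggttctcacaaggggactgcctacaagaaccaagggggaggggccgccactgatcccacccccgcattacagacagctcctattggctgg
The Cox6b1 window held 1 ETS core and 0 GC boxes, and the Cox6b2 window held 1 GC box and 0 ETS cores.

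**Figure D4:**
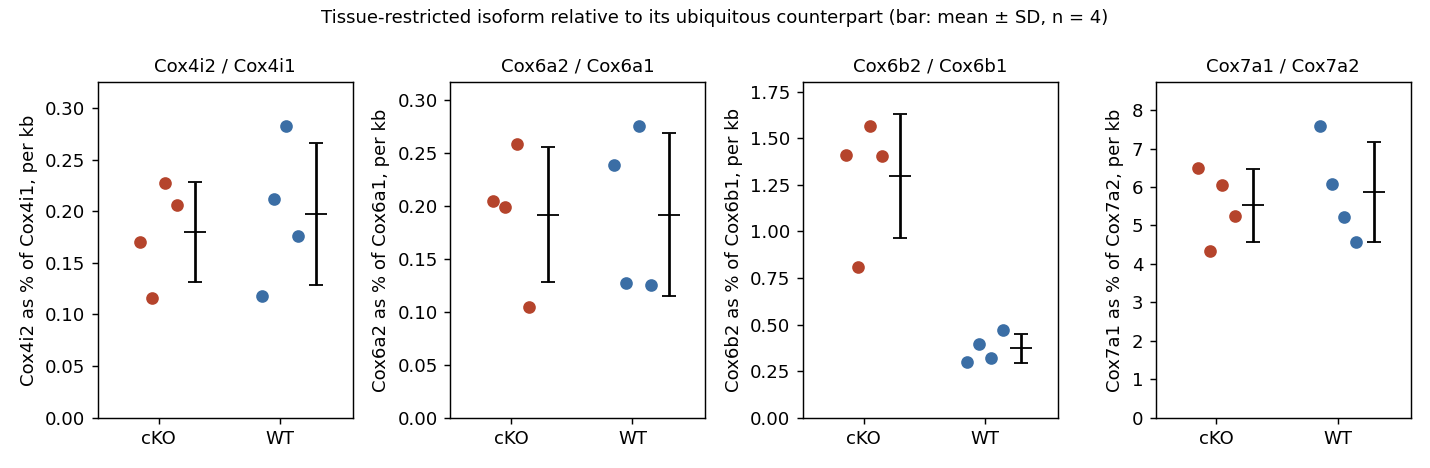
Level of each tissue-restricted isoform as a percent of its ubiquitous counterpart, per exon length, for each library (cKO left, WT right) with the mean ± SD (n = 4). Cox6b2 relative to Cox6b1 averages 1.30% in cKO and 0.373% in WT kidneys without overlap, and the other 3 ratios overlap.

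Cox4i2, the isoform known from lung and oxygen sensing, had 0.977, 1.31, 1.28 and 1.24 CPM in cKO kidneys, against 1.21, 1.72, 0.898 and 0.711 CPM in WT kidneys (log2 fold change 0.10). Cox6a2, an isoform of heart and skeletal muscle, had 1.22, 1.197, 1.78 and 0.718 CPM in cKO kidneys, against 1.98, 1.03, 0.980 and 0.582 CPM in WT kidneys (log2 fold change 0.11). Both genotypes overlapped for these isoforms, which were near the lower end of what these libraries measure. Cox7a1, also of heart and skeletal muscle, had 18.6, 23.5, 17.8 and 13.1 CPM in cKO kidneys, against 39.1, 30.2, 9.06 and 10.6 CPM in WT kidneys (log2 fold change -0.29, interval -1.22 to 0.65). WT 1 was highest for Cox7a1 and also held the highest sum of muscle markers. That sum was 63.5, 17.1, 13.1 and 13.7 CPM in WT 1 to 4 and 12.3, 28.6, 14.2 and 21.1 CPM in cKO 1 to 4. WT 2, the next highest for Cox7a1, thus had a lower muscle sum than cKO 2 and cKO 4. Of the muscle markers 1 of 6 tested was higher in cKO kidneys, Myh6 had 0 counts in all cKO kidneys and Tnnt2 had 0 counts in WT 1 to WT 3, and their part in the Cox7a1 level was not tested. Relative to their counterparts per exon length, Cox4i2 was at 0.180% ± 0.0487 in cKO and 0.197% ± 0.0688 in WT kidneys, and Cox7a1 at 5.53% ± 0.947 in cKO and 5.87% ± 1.30 in WT kidneys (SD, n = 4 each).

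The 3 complex IV subunits encoded in mitochondrial DNA had negative log2 fold changes, none of which passed the test. The catalytic subunit mt-Co1 had 18730, 14380, 15960 and 13480 CPM in cKO kidneys, against 38790, 18690, 30740 and 31410 CPM in WT kidneys. The genotypes overlapped only in that cKO 1 slightly exceeded WT 2. Its log2 fold change was -0.94 (edgeR adjusted p = 0.0710), and those of mt-Co2 and mt-Co3 were -0.54 and -0.59. Of 16 tested genes for cytochrome c, ferredoxins and other complex IV functions, 0 passed the test in either direction. Cycs, the somatic cytochrome c, averaged 174 ± 27.4 CPM in cKO and 243 ± 38.6 CPM in WT kidneys (SD, n = 4 each) without overlap (log2 fold change -0.48, edgeR adjusted p = 0.145). The genotypes did not overlap for 1 of these 16 genes and for 22.6% of all tested genes. The ferredoxins Fdx1 and Fdx1l were at -0.63 and 0.54. The testis or muscle genes Cox8c and Cox7b2 had 0 CPM in every library. Cox8b averaged 3.24 ± 2.73 CPM in cKO and 3.23 ± 2.42 CPM in WT kidneys (SD, n = 4 each). It ranged from 0.640 to 6.78 CPM in cKO and from 0.388 to 6.04 CPM in WT kidneys. Brown fat markers summed to 7.83 to 67.8 CPM in cKO and 0.711 to 23.3 CPM in WT kidneys. None of these 4 markers passed the test, and their part in the Cox8b level was not tested.

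The other complexes are read beside the 16.7% of all tested genes that differed, 9.57% higher and 7.14% lower. Of 36 nuclear complex I subunits 0 were higher and 1 was lower (2.78% in all), Ndufs1, an iron-sulfur subunit of the electron input arm. Ndufs1 had 186.6, 101.7, 168.7 and 107.8 CPM in cKO kidneys, against 212.5, 258.4, 312.3 and 296.7 CPM in WT kidneys (log2 fold change -0.93, edgeR adjusted p = 0.0307). Its call was lost in 11 of 24 alternatives, among them leaving out cKO 2, cKO 4, WT 2, WT 3 or WT 4, with edgeR adjusted p of up to 0.214. None of 9 complex III and 16 ATP synthase subunits passed the test. The medians were 0.07 for the ubiquitous complex IV subunits, -0.08 for complex I, 0.10 for complex III and -0.03 for ATP synthase. Of 12 regulators of respiratory chain genes 1 fell (8.33%, near the 7.14% of all tested genes), the coactivator Ppargc1a, with 25.3, 14.6, 14.2 and 10.3 CPM in cKO kidneys, against 32.4, 30.4, 54.7 and 46.6 CPM in WT kidneys (log2 fold change -1.35, edgeR adjusted p = 0.0123). The Ppargc1a call was lost with the sex term, with the length slope term, without WT 4 and cKO 4 and without WT 3 and WT 4 (edgeR adjusted p of 0.0648 to 0.146). Its relatives in the same pathway, Ppargc1b and the receptor Esrra, were at -1.59 and -0.63 and did not pass the test (edgeR adjusted p = 0.0689 and 0.0592). Neither overlapped between the genotypes, which held for 3 of the 12 regulators and for 22.6% of all tested genes.

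**Figure D5:**
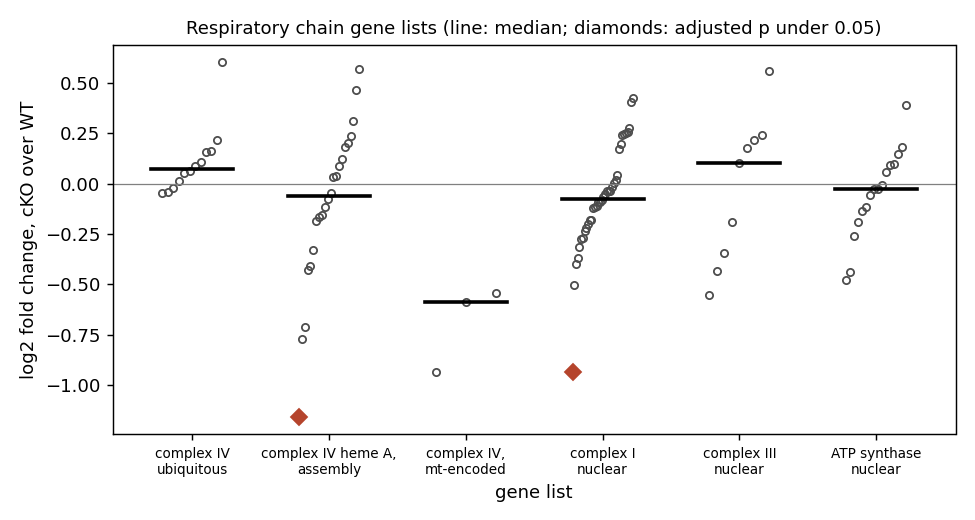
Each point is the log2 fold change (cKO over WT) of 1 gene in lists of complex IV (without its tissue-restricted isoforms), complex I, complex III and ATP synthase, the line is the median of the list, and diamonds passed the test. The medians of the ubiquitous complex IV, complex I, complex III and ATP synthase subunits lie between -0.08 and 0.10, and the diamonds are Cox15 and Ndufs1.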

How the data were processed

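RNA of whole kidneys was made into stranded libraries of polyadenylated RNA, per the labels' protocols. The deposited files hold RSEM expected counts per Ensembl gene, which the authors made from reads mapped to mm10 with STAR, per the submitters' processing notes. Tool versions and the annotation were not given in the sources used here. Of 47643 identifiers, 47224 matched GENCODE M21. Expected counts were rounded, filtered with filterByExpr and scaled by TMM (trimmed mean of M values). Genotypes were compared with edgeR 4.0.16 (glmQLFit robust, glmQLFTest, R 4.3.3), two-sided, with adjusted p over the 13829 tested genes at a 0.05 threshold. Fold changes are cKO over WT. DESeq2 1.42.0 and limma 3.58.1 served as alternatives, beside other scalings, filters, terms and left-out libraries. Same-number kidneys deviated together (r over 0.1) in 2 of 4 pairs, not in every pair, so the main fit has no block. Near-identical copies were sought with BLAST 2.17.0 (at least 100 bases at 95% identity). The length slope term, contrasts within sex, principal transcript lengths, and leaving out WT 1 with cKO 2 or WT 3 with WT 4 were added after seeing the data. All members may be named; other respiratory chain genes are named if they pass the test or belong to the mitochondrially encoded, cytochrome c and regulator lists. Overlapping, neighbouring and near-identical genes, the germ cell genes and the markers Myh6, Tnnt2, Acta2, Tagln and Slc7a13 fall outside this rule. The germ cell genes were chosen after the values of Cox6b2 were seen, and the others after their own values were seen. The members and lists were chosen with earlier results of these data known. A count of 0 is limited by counting error only, whereas the edgeR intervals include the spread between kidneys.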

Additional observations from a re-analysis of the deposited data

Results flagged for a closer look

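A kidney far from the other 3 of its genotype was found for 12 of 76 groups of values, where chance alone gives about 1 in 20 groups, and in each it was cKO 2, the highest of the cKO kidneys. Among assembly factors cKO 2 had 117.3 CPM of Cox17, 78.7 of Cox19, 126.1 of Cox14, 50.8 of Cmc1, 18.8 of Coa4 and 89.5 of Pet100. Among subunits it had 2207 CPM of Cox4i1, 1186 of Cox6c, 956.3 of Cox7a2, 969.3 of Cox7b, 893.7 of Cox7c and 1553 of Ndufa4. The other cKO kidneys held 1106 to 1182 CPM of Cox4i1 and 30.8 to 37.4 CPM of Pet100. These genes share 1 library, so the 12 flags are not independent. cKO 2 was 2.5 months old, had the fewest counts (9454830), the lowest length slope (-0.24) and the lowest proximal tubule marker sum (2759 CPM). The part of these in its values was not tested.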

How the results depend on the processing

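Cox6b2 kept its call under all 24 alternatives, and Cox15 kept its direction and lost its call in 11. The count of members lower in cKO was 0 with library size scaling, the sex term, the length slope term, without the 2.5-month kidneys, without WT 4 and cKO 4 (the later sample numbers in the file headers) and without WT 3 and WT 4, 3 with DESeq2 and 2 with an age term. It ranged from 0 to 2 when 1 library was left out. Genes called over all numbered 941 with the sex term, 1080 with the length slope term, 1397 without the 2.5-month kidneys, 568 without WT 4 and cKO 4 and 587 without WT 3 and WT 4, and 1155 to 3093 when 1 library was left out. Library size scaling moved the median log2 fold change of all genes to 0.15, with 1866 genes higher and 550 lower, against -0.01, 1323 and 987 with TMM.

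With the length slope term, log2 fold changes turned negative for Cox17 (-0.47), Cox19 (-0.24), Cox14 (-0.42), Cox16 (-0.38), Cmc2 (-0.29), Coa3 (-0.35), Coa4 (-0.22), Coa7 (-0.19), Pet100 (-0.21), Cox4i1 (-0.50), Cox5a (-0.23), Cox5b (-0.42), Cox6a1 (-0.32), Cox6b1 (-0.43), Cox6c (-0.42), Cox7b (-0.59) and Cox7c (-0.53). Without WT 3 and WT 4 they did for Cox17 (-0.33), Cox19 (-0.072), Cox14 (-0.24), Cox16 (-0.18), Cmc2 (-0.31), Coa3 (-0.29), Coa4 (-0.044), Cox4i1 (-0.34), Cox5a (-0.21), Cox5b (-0.38), Cox6a1 (-0.33), Cox6b1 (-0.38), Cox6c (-0.24), Cox7b (-0.37) and Cox7c (-0.33). Cox10 was at 0.086 without WT 1 and cKO 2, and Cox7b ranged from -0.32 to 0.37 when 1 library was left out. None of these values passed the test, and the cause was not tested. Counting also changes of sign within 1 SE, 19 of 38 members changed sign with the length slope term, 18 without WT 3 and WT 4 and 11 with the sex term.

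Same-number kidneys correlated at -0.12 to 0.34 in their deviations and different numbers at -0.32 to 0.25, and 2 of 8 kidneys correlated best with their own number. With a replicate block 2208 genes were called, 1 member higher and 1 lower, with Cox10 at -0.23.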
